A study of Mus musculus with 12 samples.

Results

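The genes described here are 9 antibody-secreting cell genes of the mouse, Prdm1, Irf4, Xbp1, Sdc1, Jchain, Tnfrsf17, Ell2, Creb3l2 and Slamf7. They were taken by name from the literature on plasma cells and matched to the deposited gene identifiers by GENCODE symbol. The choice of these genes, and of the gene lists below, was made with earlier results of these data known. All 9 were found among the 46078 genes of the count table, and all 9 passed the filter on low counts in each of the 5 comparisons. RNA was sequenced from marginal zone (MZ) and follicular (FO) B cells of the spleen of C57BL/6 mice aged 8 to 12 weeks, with 3 libraries in each of 4 groups. CKO mice carried VAVcre, a transgene that drives Cre recombinase throughout blood-forming cells, together with a conditional Zbtb24 allele, so that all blood lineages and not only B cells were targeted. Control mice carried VAVcre alone per the series description, although the genotype label of their libraries reads WT and that of the CKO libraries Zbtb24-/-. The 4 groups were MZ B cells of CKO mice, MZ B cells of Control mice, FO B cells of CKO mice and FO B cells of Control mice. Each of 6 animal numbers appears once among the MZ and once among the FO libraries, and that these are pairs from 1 mouse is an inference from those numbers.

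A B cell that is activated by antigen may become a plasmablast and then a plasma cell, which secretes antibody in bulk. BLIMP-1, the product of Prdm1, and IRF4 direct that step, BLIMP-1 by shutting down B cell genes such as Pax5, Bcl6 and Ciita, while XBP1 enlarges the endoplasmic reticulum and its folding machinery. ELL2 promotes the messenger RNA ending that yields secreted in place of membrane-bound heavy chain, CREB3L2 is a membrane-anchored transcription factor of the secretory pathway, and the J chain joins IgM or IgA units into polymers. Syndecan-1 (CD138, Sdc1), BCMA (Tnfrsf17, a survival receptor for APRIL and BAFF) and SLAMF7 (a SLAM family receptor) are surface proteins by which plasma cells are recognised. MZ B cells are known to turn into plasmablasts faster than FO B cells.

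On GRCm38, with spans from GENCODE M21, Prdm1 (ENSMUSG00000038151) lies at chr10:44437177-44528501 on the minus strand, 2.972 Mb from Zbtb24, and Irf4 (ENSMUSG00000021356) at chr13:30749226-30766976 on the plus strand. Xbp1 (ENSMUSG00000020484) lies at chr11:5520659-5525893 on the plus strand, Ell2 (ENSMUSG00000001542) at chr13:75706757-75772364 on the plus strand, and Creb3l2 (ENSMUSG00000038648) at chr6:37327255-37442146 on the minus strand. Jchain (ENSMUSG00000067149) lies at chr5:88519809-88527891 on the minus strand, Sdc1 (ENSMUSG00000020592) at chr12:8771323-8793715 on the plus strand, Tnfrsf17 (ENSMUSG00000022496) at chr16:11313812-11320074 on the plus strand and Slamf7 (ENSMUSG00000038179) at chr1:171632403-171653035 on the minus strand. All are protein-coding genes, and the counts are per gene. Slamf7 shares 423 exon bases with the antisense gene Gm37787, which had 7 to 21 counts per library, and Ell2 shares 130 with the small nucleolar RNA gene Gm23127, which had 1 to 9. Counts per gene do not part the spliced from the unspliced Xbp1 message, and those of the heavy chain genes do not part the secreted from the membrane form.

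The promoter windows of the 2 genes with the largest difference between MZ and FO B cells in each direction that passed in both genotypes are shown: Prdm1 and Irf4, which were higher in MZ B cells, and Sdc1 and Slamf7, which were lower. Each window holds the 300 bases from 250 before to 50 after the gene start in RefSeq (GRCm38.p6), read 5′ to 3′ on the strand of the gene. The Prdm1 window is chr10:44458699-44458998 on the minus strand, the Irf4 window chr13:30748983-30749282 on the plus strand, the Sdc1 window chr12:8771146-8771445 on the plus strand and the Slamf7 window chr1:171648950-171649249 on the minus strand. The Prdm1 and Slamf7 windows lie inside the GENCODE spans of their genes, which reach further upstream. Capitals mark the core of the BLIMP-1 site, GAAAGT, or its reverse complement, ACTTTC.
Prdm1: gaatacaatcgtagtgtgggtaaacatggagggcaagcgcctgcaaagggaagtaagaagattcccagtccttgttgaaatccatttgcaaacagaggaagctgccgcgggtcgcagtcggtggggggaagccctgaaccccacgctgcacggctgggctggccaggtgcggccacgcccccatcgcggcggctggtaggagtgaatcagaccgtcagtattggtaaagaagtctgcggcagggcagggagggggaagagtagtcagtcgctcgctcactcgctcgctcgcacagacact
Irf4: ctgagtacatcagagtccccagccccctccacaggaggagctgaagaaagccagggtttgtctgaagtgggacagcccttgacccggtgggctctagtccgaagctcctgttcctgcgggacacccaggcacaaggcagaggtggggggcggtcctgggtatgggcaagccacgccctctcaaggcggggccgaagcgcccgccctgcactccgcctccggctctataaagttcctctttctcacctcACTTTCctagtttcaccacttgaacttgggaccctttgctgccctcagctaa
Sdc1: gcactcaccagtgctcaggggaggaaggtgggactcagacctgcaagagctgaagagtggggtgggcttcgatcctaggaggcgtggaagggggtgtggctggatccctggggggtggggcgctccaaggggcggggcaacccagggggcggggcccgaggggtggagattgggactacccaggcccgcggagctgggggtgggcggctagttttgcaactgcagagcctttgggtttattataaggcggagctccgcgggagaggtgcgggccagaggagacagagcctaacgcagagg
Slamf7: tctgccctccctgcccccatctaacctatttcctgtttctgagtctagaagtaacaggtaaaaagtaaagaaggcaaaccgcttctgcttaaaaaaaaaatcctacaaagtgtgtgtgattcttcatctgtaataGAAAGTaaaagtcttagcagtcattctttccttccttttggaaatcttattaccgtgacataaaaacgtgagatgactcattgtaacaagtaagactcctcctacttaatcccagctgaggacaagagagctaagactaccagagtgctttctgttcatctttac
GAAAGT was searched on both strands, as were CCAAT and CCACG with 9 bases between them (the endoplasmic reticulum stress response element), TGACGTGG (a site of XBP1 and the CREB3 family) and GGAA and GAAA with 2 bases between them (a composite site of IRF4 with ETS factors). The core GAAAGT was found in 14.3% of the 32851 RefSeq windows of the same length. Among the windows of the 9 genes it was present once in Irf4, across the gene start, once in Slamf7, at -115 to -110 from the start, and at 2 places in Tnfrsf17, at -178 to -173 and -123 to -118. The other motifs were not in any of these 9 windows and were found in 0.119%, 0.676% and 2.72% of all windows, in the order just given. The Sdc1 window was the richest of the 9 in G and C (66.3%) and the Slamf7 window the poorest (39.0%), where the median of all windows was 52.7%. The Ell2 and Prdm1 windows held 23 and 20 CpG dinucleotides, and those of Jchain and Slamf7 held 3 each, against a median of 7 over all windows.

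Libraries held 36340116 to 44629250 counts assigned to genes. The first principal component, with 40.8% of the variance, parted MZ from FO libraries. In CKO and in Control mice, all 12 MZ B cell markers tested were higher in MZ than in FO libraries. All 6 FO B cell markers were lower. These lists were chosen with earlier results of these data known, so they are not an independent check of the cell type labels. Zbtb24 was at 46.4, 41.8 and 41.9 CPM (counts scaled to the size of each library) in MZ CKO libraries and at 49.1, 52.9 and 54.4 CPM in MZ Control libraries. In FO B cells it was at 48.3, 46.9 and 50 CPM in CKO libraries and at 62.5, 60.8 and 60.8 CPM in Control libraries. The CKO libraries lay below the Control libraries in both cell types. The log2 difference was -0.27 in MZ (adjusted p = 1, range over alternatives 0.4651 to 1) and -0.34 in FO B cells (adjusted p = 0.1943, range 0.007683 to 0.7832), so that Zbtb24 passed in FO B cells under at least 1 alternative, and counts per gene do not part a deleted stretch of the gene from the rest. Cdca7, which ZBTB24 is known to activate, stood at 3.33 ± 1.82 CPM in MZ CKO and 36.4 ± 5.22 CPM in MZ Control libraries, and at 1.4 ± 1.1 CPM in FO CKO and 32.6 ± 1.11 CPM in FO Control libraries (SD, n = 3 each). Its log2 difference was -3.45 in MZ (adjusted p = 0.2909, range over alternatives 4.606e-11 to 1) and -4.54 in FO B cells (adjusted p = 0.564, range 6.687e-10 to 0.9997). Between MZ and FO B cells Zbtb24 was lower in MZ in Control mice (log2 -0.24, adjusted p = 0.01961, range over alternatives 0.0006527 to 0.08291) and did not pass in CKO mice (log2 -0.15, adjusted p = 0.2147). Cdca7 passed between the cell types in neither (log2 1.26, adjusted p = 0.2917 in CKO and 0.16, adjusted p = 0.2663 in Control mice), but did in CKO mice with the animal number as a block (adjusted p = 6.516e-06, range over alternatives 6.516e-06 to 0.5558). Replicate 2 of each group, animals 1514 (CKO) and 1507 (Control), stood at the high end of its group on the second principal component (17.7% of the variance). Replicate 3 of each group, animals 2002 (CKO) and 2003 (Control), stood at the low end. The results on Jchain, Sdc1, Tnfrsf17 and Slamf7 between MZ and FO B cells are given with and without animals 1514 and 1507.

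Within every group the 9 genes spanned a wide range of levels. On the scale of CPM per kilobase of exon, Irf4 stood highest in all 4 groups, at a mean of 66.2 in MZ CKO, 67.3 in MZ Control, 46.8 in FO CKO and 49.4 in FO Control libraries. Xbp1 followed at 43.8, 44.1, 42.4 and 41.8 in the same 4 groups, and all its libraries lay below those of Irf4. Jchain and Slamf7 came next in each group, and the libraries of Xbp1 and Jchain overlapped in every group but MZ CKO. In MZ B cells Ell2 and then Prdm1 (1.76 in CKO and 1.62 in Control libraries) followed, whereas Prdm1 was last of the 9 in FO B cells, at 0.578 in CKO and 0.62 in Control libraries. In FO B cells the neighbours Creb3l2 and Tnfrsf17, and Tnfrsf17 and Prdm1, overlapped between libraries. The place of Sdc1 was the fifth in FO B cells, at 6.28 in CKO and 6.5 in Control libraries, all above Ell2. In MZ B cells Sdc1 averaged 1.46 in CKO and 1.24 in Control libraries and overlapped with its neighbours Prdm1 and Creb3l2 in CKO mice and with Creb3l2 in Control mice.

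**Figure D1:**
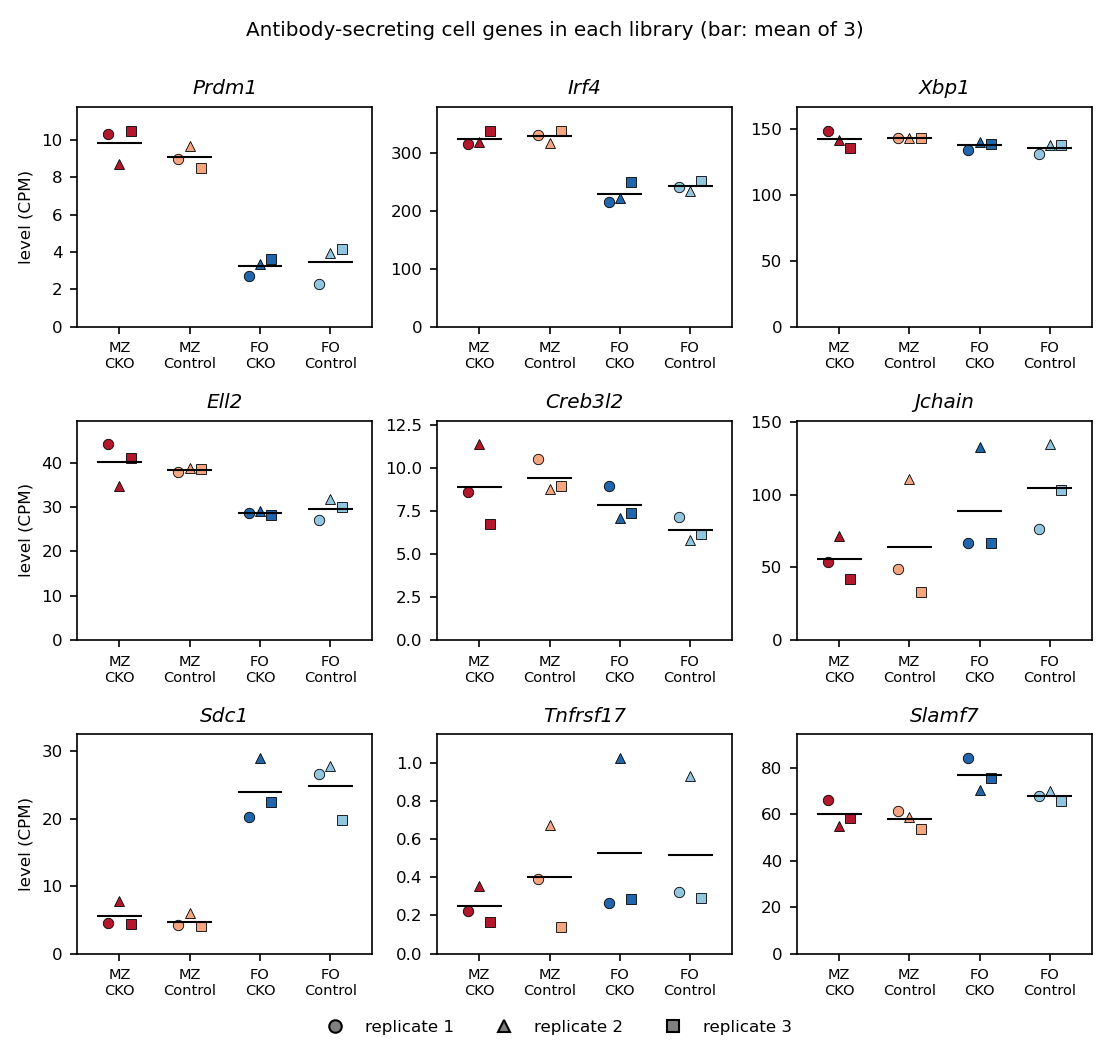
Level of each of the 9 antibody-secreting cell genes in CPM in every library, with 1 panel per gene, the 4 groups on the horizontal axis, 1 symbol per replicate and a bar at the mean of 3 libraries. Prdm1, Irf4 and Ell2 stand higher in all MZ libraries than in all FO libraries of either genotype and Sdc1 lower, while CKO and Control libraries of a cell type lie side by side, and replicate 2 (triangles) is the highest of its group for Jchain, Sdc1 and Tnfrsf17.

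The main contrast of the study, CKO against Control, showed no called difference in these genes, and the contrast between cell types did. Of the 9 genes, 0 passed between CKO and Control mice in MZ B cells (0.0793% of all 17658 genes tested passed) and 0 in FO B cells (0.09% of 17777), at an adjusted p under 0.05 in edgeR's quasi-likelihood test with Benjamini-Hochberg adjustment over all genes. That test did not call Cdca7 either, at log2 differences of -3.45 in MZ and -4.54 in FO B cells. An absent call therefore does not show an unchanged level. At an unadjusted p under 0.05 there were 0 of the 9 in MZ B cells (2.9% of all genes) and 1 in FO B cells, Slamf7 (4.03% of all genes). DESeq2 and limma-voom also called 0 of the 9 in either cell type. With the replicate number as a block, 0 of the 9 passed in FO B cells (0.141% of all genes). Between MZ and FO B cells, 5 of the 9 passed in CKO mice, 3 higher and 2 lower in MZ, where 10.5% of the 17712 genes tested were called higher and 7.78% lower (18.3% in all, or 3243 genes, against 1898 without FO CKO replicate 1). In Control mice 6 of the 9 passed, 4 higher and 2 lower in MZ, where 14.9% of 17830 genes were called higher and 13.0% lower (27.9% in all). With the animal number as a block, 6 of the 9 passed in CKO mice (35.8% of all genes) and 6 in Control mice (43.8%). MZ and FO libraries did not overlap for 5 of the 9 in CKO mice (36.4% of all genes) and for 7 in Control mice (42.3%). These are bulk libraries, in which fewer cells that express a gene and less RNA per cell cannot be told apart. Nothing in the labels says that the libraries of a group came from separate cell preparations beyond the animal numbers, and p-values measure the spread between these libraries.

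Prdm1, the gene of BLIMP-1, had the largest rise of the 9 in MZ B cells. It stood at 10.3, 8.70 and 10.5 CPM in MZ libraries of CKO mice, against 2.68, 3.37 and 3.62 CPM in their FO libraries. In Control mice it stood at 9.0, 9.69 and 8.49 CPM in MZ libraries and at 2.29, 3.94 and 4.14 CPM in FO libraries. Every MZ library lay above every FO library, and the lowest MZ value was more than double the highest FO value. The log2 fold change, MZ over FO, was 1.62 in CKO mice (SE 0.17, adjusted p = 0.0002797) and 1.39 in Control mice (SE 0.21, adjusted p = 0.0004846). Within an animal number the ratio of MZ to FO ranged between 2.05 and 3.93 over the 6 animals. Between CKO and Control the log2 difference was 0.12 in MZ B cells (95% interval -0.19 to 0.43) and -0.10 in FO B cells (-0.64 to 0.44), with overlapping libraries in both. The Prdm1 level rested on 92 to 430 counts per library.

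Irf4, which acts upstream of Prdm1 and with it, was higher in MZ B cells by a smaller and more even step. It stood at 315, 320 and 339 CPM in MZ and at 216, 223 and 250 CPM in FO libraries of CKO mice. Libraries of Control mice held 332, 318 and 339 CPM in MZ and 242, 235 and 251 CPM in FO libraries. The groups did not overlap in either genotype, and all 6 animals had a ratio of MZ to FO between 1.35 and 1.46. The log2 fold change was 0.51 in CKO mice (SE 0.08, adjusted p = 0.001826) and 0.44 in Control mice (SE 0.06, adjusted p = 0.0003043). Between CKO and Control it was -0.02 in MZ (95% interval -0.19 to 0.14) and -0.08 in FO B cells (-0.23 to 0.08).

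Xbp1, the transcription factor of the unfolded protein response, was nearly level over all 12 libraries. It stood at 149, 142 and 136 CPM in MZ CKO, 143 CPM in each MZ Control, 134, 140 and 139 CPM in FO CKO and 131, 138 and 138 CPM in FO Control libraries. MZ libraries lay above FO libraries in Control mice, and the groups overlapped in CKO mice. The log2 difference was 0.05 in CKO mice (SE 0.06, adjusted p = 0.6341) and 0.08 in Control mice (SE 0.06, adjusted p = 0.395), and neither passed. The interval of the genotype difference was narrow, at -0.16 to 0.14 in MZ and -0.10 to 0.15 in FO B cells on the log2 scale. After group means were taken off, the spread of Xbp1 between libraries (SD 0.04 on the log2 scale) was at the 1.0 percentile among 14012 genes.

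Of the factors for secretion, Ell2 was higher in MZ B cells in both genotypes and Creb3l2 passed in Control mice. Ell2 stood at 44.2, 34.8 and 41.1 CPM in MZ and 28.6, 29.1 and 28.2 CPM in FO libraries of CKO mice. Control mice had 37.9, 38.8 and 38.5 CPM in MZ and 27.1, 31.7 and 29.9 CPM in FO libraries. No MZ library overlapped with an FO library, and the log2 fold change was 0.49 in CKO mice (SE 0.10, adjusted p = 0.008416) and 0.38 in Control mice (SE 0.08, adjusted p = 0.003776). All 6 animals had more Ell2 in MZ than in FO B cells, by a ratio of 1.19 to 1.54. With animals 1505 to 1514 alone the call in CKO mice was lost (log2 0.46, adjusted p = 0.08469, range over all alternatives 2.568e-05 to 0.08469). Between CKO and Control the log2 difference was 0.06 in MZ (95% interval -0.15 to 0.27) and -0.04 in FO B cells (-0.22 to 0.14).

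Creb3l2 stood at 8.59, 11.4 and 6.76 CPM in MZ and 8.98, 7.12 and 7.41 CPM in FO libraries of CKO mice, which overlapped. In Control mice it stood at 10.5, 8.79 and 8.96 CPM in MZ and 7.16, 5.83 and 6.17 CPM in FO libraries, which did not. The log2 fold change was 0.20 in CKO mice (SE 0.20, adjusted p = 0.576) and 0.56 in Control mice (SE 0.14, adjusted p = 0.01079). The call in Control mice was lost without MZ Control replicate 1 (adjusted p = 0.05564; range over all alternatives 8.723e-06 to 0.08431), and without MZ CKO replicate 2 the value in CKO mice was -0.02. The difference between the genotypes in this step was tested as an interaction, which was -0.38 on the log2 scale (SE 0.25, adjusted p = 1) and did not pass. In FO B cells Creb3l2 had a log2 difference of 0.30 between CKO and Control (95% interval -0.03 to 0.63), and in MZ B cells of -0.08 (-0.50 to 0.34).

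Jchain, the joining chain of polymeric antibody, varied widely between animals, and MZ B cells had the lower level in each animal. It stood at 53.6, 71.9 and 42.1 CPM in MZ and at 67.1, 133 and 67.1 CPM in FO libraries of CKO mice. Control mice had 49.1, 111 and 33.0 CPM in MZ and 76.6, 135 and 103 CPM in FO libraries. MZ and FO libraries overlapped in both genotypes. Without regard to the animal, the log2 difference was -0.66 in CKO mice (SE 0.38, adjusted p = 0.3333) and -0.70 in Control mice (SE 0.56, adjusted p = 0.4511), and neither passed. Within each of the 6 animal numbers the MZ library was the lower, with ratios of 0.32 to 0.825. With the animal number as a block, Jchain passed in CKO mice (log2 -0.62, adjusted p = 2.299e-05; range over all alternatives 2.299e-05 to 0.5592) and did not in Control mice (log2 -0.83, adjusted p = 0.2591). Without animals 1507 and 1514 Jchain passed in CKO mice as well (log2 -0.47, adjusted p = 0.03455) and did not in Control mice (log2 -1.13, adjusted p = 0.1141). Without any 1 library the value ranged from -0.89 to -0.25 in CKO mice, the smallest difference without FO CKO replicate 2, and from -1.35 (without MZ Control replicate 2) to -0.39 (without MZ Control replicate 3) in Control mice. Between CKO and Control the 95% interval was wide, -1.71 to 1.29 in MZ and -1.30 to 0.84 in FO B cells on the log2 scale.

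Sdc1, the gene of CD138, had the largest difference of the 9, and it was lower in MZ B cells. It stood at 4.52, 7.79 and 4.33 CPM in MZ and at 20.2, 29.1 and 22.5 CPM in FO libraries of CKO mice. In Control mice it stood at 4.17, 5.97 and 4.06 CPM in MZ and at 26.7, 27.9 and 19.8 CPM in FO libraries. The highest MZ library held less than 8 CPM and the lowest FO library more than 19 CPM. The MZ level was 0.233 times the FO level in CKO mice (log2 -2.10, SE 0.26, adjusted p = 0.001949) and 0.192 times in Control mice (log2 -2.38, SE 0.19, adjusted p = 1.898e-05). Each of the 6 animals showed it, with ratios of 0.156 to 0.268. Between CKO and Control the log2 difference was 0.22 in MZ (95% interval -0.35 to 0.80) and -0.05 in FO B cells (-0.47 to 0.38).

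Slamf7 was modestly lower in MZ B cells, at 66.2, 55.1 and 58.4 CPM in MZ and 84.4, 70.5 and 75.4 CPM in FO libraries of CKO mice. Libraries of Control mice held 61.5, 58.8 and 53.7 CPM in MZ and 68.0, 70.0 and 65.5 CPM in FO libraries. The groups did not overlap in either genotype, and all 6 animals had the lower level in MZ, by ratios of 0.774 to 0.905. The log2 fold change was -0.35 in CKO mice (SE 0.09, adjusted p = 0.03138) and -0.23 in Control mice (SE 0.07, adjusted p = 0.03276). In CKO mice the call was lost without FO CKO replicate 1 (adjusted p = 0.1296), FO CKO replicate 3 (0.07177), MZ CKO replicate 2 (0.08427) or MZ CKO replicate 3 (0.08601). In Control mice it was lost without FO Control replicate 1 (0.07553), FO Control replicate 2 (0.1118), MZ Control replicate 2 (0.05138) or MZ Control replicate 3 (0.1557). Without animals 1507 and 1514 it was lost in CKO mice (log2 -0.35, adjusted p = 0.05903) and in Control mice (log2 -0.21, adjusted p = 0.1351). Over all alternatives the adjusted p ranged from 0.0001059 to 0.1705 in CKO mice and from 0.0008372 to 0.1557 in Control mice, the lowest with the animal number as a block.

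Slamf7 was also the only gene of the 9 whose CKO and Control libraries did not overlap, which they did not in FO B cells alone. The FO CKO libraries lay above the FO Control libraries, by a log2 difference of 0.18 (SE 0.07, 95% interval 0.01 to 0.35). That difference did not pass (unadjusted p = 0.03628, adjusted p = 0.9995), and the exact two-sided permutation p was 0.1, the smallest that 3 libraries against 3 allow. Groups without overlap were found for 9.33% of all genes in this comparison, and for 7.63% in MZ B cells, where 0 of the 9 genes had them. In MZ B cells the difference was 0.05 (SE 0.09, 95% interval -0.15 to 0.24).

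Tnfrsf17, the gene of BCMA, had the fewest counts of the 9, with 5 to 41 counts per library. It stood at 0.223, 0.356 and 0.166 CPM in MZ and 0.268, 1.03 and 0.288 CPM in FO libraries of CKO mice, and at 0.394, 0.676 and 0.141 CPM in MZ and 0.323, 0.932 and 0.293 CPM in FO libraries of Control mice. All groups overlapped, and no comparison passed. MZ over FO the log2 difference was -1.06 in CKO mice (95% interval -2.44 to 0.31) and -0.32 in Control mice (-1.71 to 1.06). Without any 1 library it ranged from -1.41 to -0.14 in CKO mice, the smallest difference without FO CKO replicate 2, and from -0.93 to 0.42 in Control mice, the highest without FO Control replicate 2. Without animals 1507 and 1514 it was -0.49 in CKO mice and -0.19 in Control mice. CKO over Control it was -0.72 in MZ (-1.92 to 0.49) and 0.03 in FO B cells (-1.62 to 1.68). With the replicate number as a block, the SE in FO B cells was 0.3, against 0.69 without it.

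**Figure D2:**
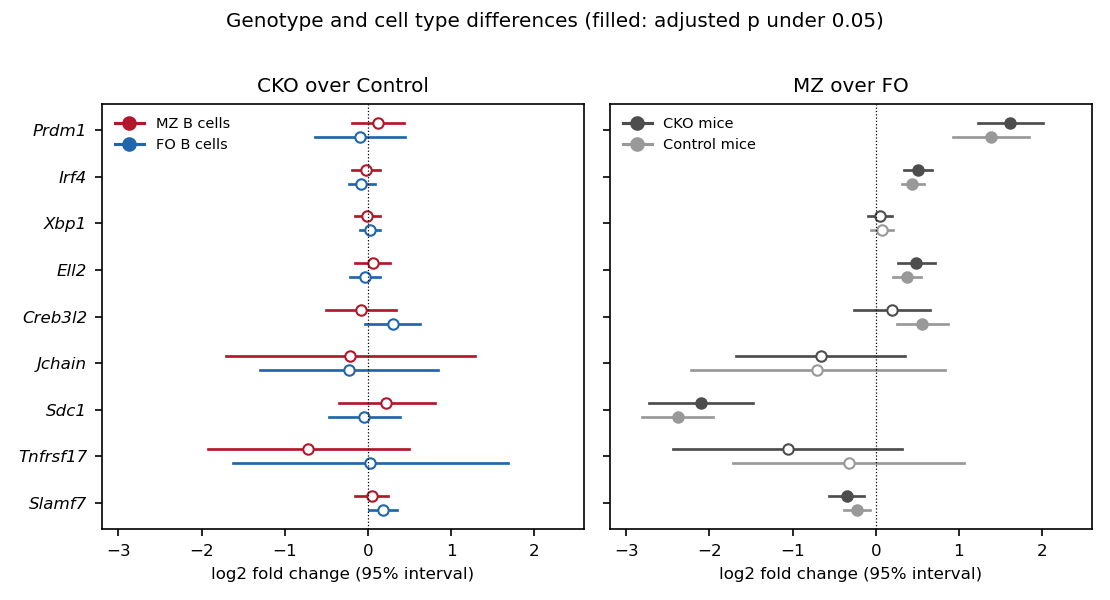
Log2 fold change with its 95% interval for the 9 genes, CKO over Control on the left (MZ and FO B cells) and MZ over FO on the right (CKO and Control mice), with filled symbols for an adjusted p under 0.05 in edgeR's quasi-likelihood test. All CKO over Control symbols are open, with the widest intervals for Jchain and Tnfrsf17, while Prdm1, Irf4 and Ell2 lie to the right and Sdc1 and Slamf7 to the left in both MZ over FO sets.

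The step between MZ and FO B cells did not differ detectably between CKO and Control mice. In the interaction test 0 of the 9 genes passed (0.0% of 18546 genes), with 0 of the 9 at an unadjusted p under 0.05 (1.28% of all genes). DESeq2 called 0 as well, and with the animal number as a block 0 of the 9 passed (0.0216% of all genes). The largest interaction values were -0.74 for Tnfrsf17 (SE 0.96) and -0.38 for Creb3l2 (SE 0.25) on the log2 scale. Irf4 had an interaction of 0.06, Xbp1 of -0.03, Jchain of 0.03, Ell2 of 0.11 and Slamf7 of -0.13. For Zbtb24 it was 0.08, and for Cdca7 1.10 (adjusted p = 1), which passed with the animal number as a block (adjusted p = 0.002535, range over alternatives 0.002535 to 1). That of Prdm1 was 0.22 (95% interval -0.38 to 0.83) and that of Sdc1 0.28 (-0.50 to 1.05). The cell type comparisons in CKO and Control mice rest on different animals, and both genotype comparisons on the same 6, so the genotype values of MZ and FO B cells are not independent. Each library also serves in 1 comparison of genotypes and 1 of cell types.

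Jchain, Sdc1 and Tnfrsf17 shared 1 feature between libraries: each was highest in replicate 2 of every group, that is in both libraries of animal 1514 (CKO) and of animal 1507 (Control). The share of all genes with this pattern was not counted, so it cannot be called particular to these genes. Summed over 20 other antibody-secreting cell genes, replicate 2 was the lowest library in MZ CKO (2720 CPM) and in FO CKO (1650 CPM). For that sum it was the middle library in FO Control (1620 CPM) and the highest in MZ Control (2930 CPM). For Jchain the replicate 2 libraries held 71.9 and 133 CPM in animal 1514 and 111 and 135 CPM in animal 1507, MZ first. The other 8 libraries held 33.0 to 103 CPM. After group means were taken off, the SD of Jchain between libraries was 0.59 on the log2 scale, the 97.6 percentile among 14012 genes, and that of Sdc1 was 0.30, the 91.4 percentile. For Irf4 it was 0.07, the 11.2 percentile.

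**Figure D3:**
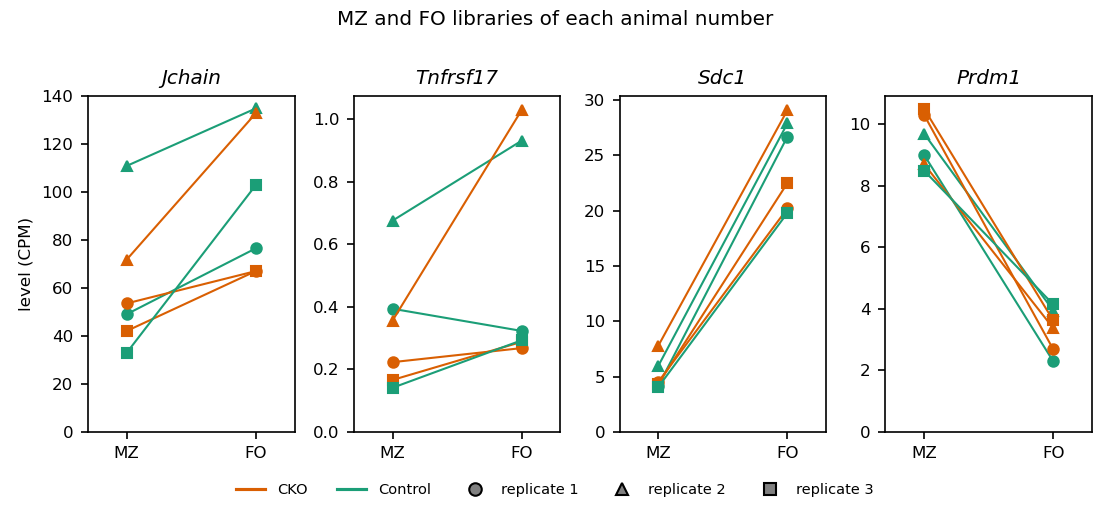
Level in CPM of Jchain, Tnfrsf17, Sdc1 and Prdm1 in the MZ (left) and FO (right) library of each animal number, joined by a line, with CKO and Control mice in separate colours and 1 symbol per replicate number. Jchain and Sdc1 are lower in the MZ library of all 6 animals and Prdm1 is higher, and the triangles, animals 1514 and 1507, are the highest of their groups for the first 3 genes.

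Transcripts of other cells, and cell cycle transcripts of unassigned cells, were also high in the replicate 2 libraries. Summed over 8 neutrophil markers, replicate 2 held 240 CPM in MZ CKO, 138 in MZ Control, 394 in FO CKO and 190 in FO Control libraries, where the other libraries held 45.2 to 175 CPM. Summed over 10 cell cycle genes, replicate 2 held 797, 478, 610 and 377 CPM in the same order, where the others held 246 to 418 CPM. Erythroid and platelet markers, T cell markers and NK cell markers were likewise highest in replicate 2 of all 4 groups. Macrophage markers were highest there in 3 groups, replicate 3 leading in FO Control at 391 against 378 CPM. No marker of these lists was at 0 in any group. Their part in the levels of Jchain, Sdc1 and Tnfrsf17 was not tested. Without animals 1507 and 1514 Sdc1 was lower in MZ B cells by a log2 of -2.26 in CKO mice and -2.49 in Control mice, and it passed in every alternative. Its log2 fold change without any 1 library ranged from -2.43 to -1.93 in CKO and from -2.59 to -2.29 in Control mice.

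Immunoglobulin constant genes had no shared order over these libraries. Of 12, replicate 2 was the highest library for 5 and the lowest for 1 in MZ CKO, the highest for 8 and the lowest for 2 in MZ Control, the highest for 7 and the lowest for 3 in FO CKO, and the highest for 4 and the lowest for 5 in FO Control libraries. Igha, the heavy chain of IgA that the J chain pairs, was chosen after its values were seen. It stood at 104, 323 and 142 CPM in MZ CKO libraries, against 198, 322 and 143 CPM in MZ Control libraries. In FO B cells it stood at 135, 485 and 179 CPM in CKO libraries, against 437, 416 and 435 CPM in Control libraries. Replicate 2 was the highest in 3 of the 4 groups, and CKO and Control overlapped in both cell types. The log2 difference, CKO over Control, was -0.22 in MZ (SE 0.59, adjusted p = 1) and -0.68 in FO B cells (SE 0.56, adjusted p = 0.9995).

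MZ libraries also held fewer transcripts of some other cells than FO libraries. The 10 T cell markers summed to 199 to 316 CPM in MZ and 279 to 416 CPM in FO libraries of CKO mice, and to 239 to 356 CPM in MZ and 411 to 482 CPM in FO libraries of Control mice. Of these 10 genes, 1 passed as lower in MZ in CKO mice and 6 in Control mice. The 8 macrophage and monocyte markers summed to 195 to 297 CPM in MZ and 266 to 465 CPM in FO libraries of CKO mice, and to 154 to 288 CPM in MZ and 200 to 391 CPM in FO libraries of Control mice. The 7 B-1 cell markers summed to 179 to 259 CPM in MZ and 230 to 322 CPM in FO libraries of CKO mice. In Control mice they summed to 166 to 227 CPM in MZ and 243 to 287 CPM in FO libraries. Of these 7, 1 passed as higher in MZ in CKO mice (Bhlhe41, log2 1.2) and 1 as lower (Ctla4, log2 -0.85). In Control mice 1 passed as higher (Bhlhe41, log2 0.95) and 2 as lower (Cd5, log2 -0.57, and Ctla4, log2 -0.64). This list went both ways, so its sum alone does not measure B-1 cells. The part of these transcripts of other cells in the lower Sdc1, Slamf7 and Jchain of MZ B cells was not tested.

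Among repressors of the plasma cell fate and B cell identity factors, every gene that passed was lower in MZ B cells. Of 12 tested, 7 were lower and 0 higher in CKO mice (median log2 -0.36), and 7 were lower and 0 higher in Control mice (median log2 -0.45), where the median of all genes was -0.01 and 0.01. For this and the following lists, 10.5% of all genes were called higher and 7.78% lower in MZ B cells in CKO mice. In Control mice these shares were 14.9% and 13.0%. Bach2, which represses Prdm1, was at 43.0 ± 6.02 CPM in MZ and 157 ± 3.47 CPM in FO libraries of CKO mice (log2 -1.86, adjusted p = 9.763e-06) and at 36.5 ± 4.34 CPM in MZ and 149 ± 9.17 CPM in FO libraries of Control mice (log2 -2.03, adjusted p = 5.985e-08; SD, n = 3 each). Bcl6, another repressor of Prdm1, was at 33.8 ± 0.822 CPM in MZ and 94.5 ± 4.78 CPM in FO libraries of CKO mice (log2 -1.47, adjusted p = 7.623e-06) and had a log2 of -1.53 in Control mice (adjusted p = 1.757e-05). Id3, an inhibitor of E proteins, had a log2 of -0.83 in CKO and -0.94 in Control mice. Ciita, the activator of MHC class II genes and a BLIMP-1 target, had a log2 of -0.73 in CKO and -0.84 in Control mice. Among cofactors and targets of BLIMP-1, 4 of 12 were higher and 1 lower in each genotype: Myc rose (log2 1.15 in CKO and 1.13 in Control mice), as did the kinase gene Blk (0.95 and 0.92) and the methyltransferase gene Ehmt2 (0.58 and 0.52), and Klf2, also on the list of FO markers, fell (-1.86 and -2.17).

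Other antibody-secreting cell genes were divided. Of 18 tested, 6 were higher and 4 lower in MZ B cells in CKO mice (median log2 0.14), and 6 were higher and 3 lower in Control mice (median log2 0.03). Pdia4, a disulphide isomerase of the endoplasmic reticulum, was at 1260 ± 161 CPM in MZ and 311 ± 14.3 CPM in FO libraries of CKO mice (log2 2.03, adjusted p = 9.763e-06) and at 1310 ± 24.2 CPM in MZ and 284 ± 16.3 CPM in FO libraries of Control mice (log2 2.20, adjusted p = 6.185e-09). Mzb1, a chaperone of IgM assembly that is also on the list of MZ markers, had a log2 of 1.45 in CKO and 1.62 in Control mice. Derl3, for the disposal of misfolded proteins, had a log2 of 1.42 in CKO and 1.17 in Control mice. Txndc5, another disulphide isomerase, was lower (log2 -0.68 in CKO and -0.83 in Control mice). Fkbp11, a prolyl isomerase named after its values were seen, was lower too (log2 -1.12 in CKO and -1.35 in Control mice).

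In the XBP1 pathway, 5 of 12 genes were higher and 1 lower in MZ B cells in CKO mice (median log2 0.23), and 6 were higher and 2 lower in Control mice (median log2 0.22), beside the level Xbp1. Atf6, a parallel stress sensor, was at 191 ± 12.8 CPM in MZ and 129 ± 7.15 CPM in FO libraries of CKO mice (log2 0.58, adjusted p = 0.0008461) and had a log2 of 0.57 in Control mice (adjusted p = 0.0002379). Ern1, the sensor IRE1α that splices Xbp1, had a log2 of 0.40 in CKO and 0.44 in Control mice. Herpud1, of the degradation complex, fell (log2 -0.39 in CKO and -0.36 in Control mice).

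**Figure D4:**
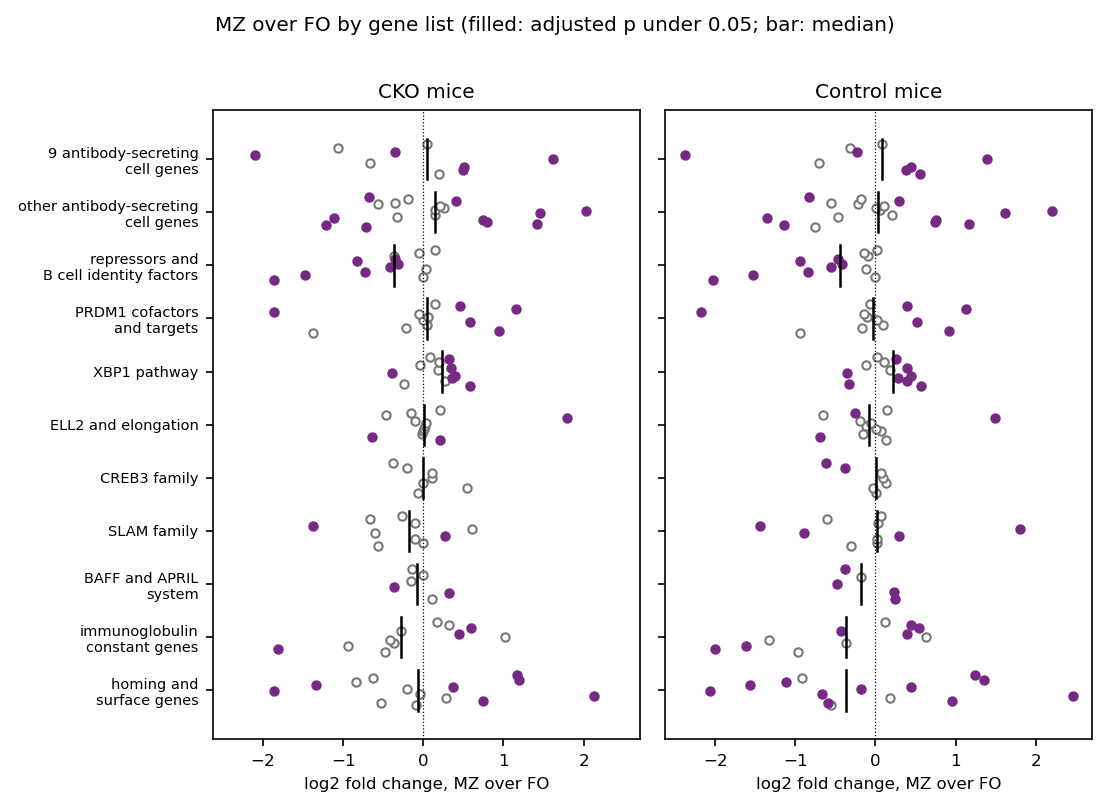
Log2 fold change, MZ over FO, of each tested gene in 11 gene lists around the antibody-secreting cell programme, in CKO mice (left) and Control mice (right), with filled points for an adjusted p under 0.05 and a bar at the median of each list. The repressors and B cell identity factors have filled points only left of 0, and the other lists have filled points on both sides or few of them.

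Lists built on ELL2 and CREB3L2 are set beside all genes tested. Of all genes, 10.5% were called higher and 7.78% lower in MZ B cells in CKO mice, and 14.9% and 13.0% in Control mice. Of 12 genes for transcript elongation with ELL2, 2 were higher and 1 lower in CKO mice, and 1 higher and 2 lower in Control mice. Ell3 is another member of the ELL family. In CKO mice it was at 10.3 ± 0.718 CPM in MZ and 3.0 ± 0.639 CPM in FO libraries (log2 1.79, adjusted p = 0.0002687). Its log2 was 1.49 in Control mice. Aff4, the scaffold of the super elongation complex, fell (log2 -0.64 in CKO and -0.69 in Control mice). Of 7 genes of the CREB3 family, its proteases and its coat protein targets, 0 passed in CKO mice, and Sec23a (log2 -0.38) and Sec24d (log2 -0.62) were lower in Control mice.

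Among 10 SLAM family receptors and adaptors, 1 was higher and 1 lower in CKO mice and 2 were higher and 2 lower in Control mice. Slamf1 was at 25.1 ± 0.762 CPM in MZ and 65.6 ± 2.89 CPM in FO libraries of CKO mice (log2 -1.38, adjusted p = 9.763e-06) and had a log2 of -1.44 in Control mice. Ly9 was higher, by a log2 of 0.27 in CKO and 0.30 in Control mice. Of 6 genes of the BAFF and APRIL system tested in CKO mice, 1 was higher and 1 lower. Of 5 tested in Control mice, 2 were higher and 2 lower. Among BCMA's relatives, Tnfrsf13b (TACI) was higher (log2 0.32 in CKO and 0.23 in Control mice). Tnfrsf13c, the BAFF receptor, was lower (log2 -0.36 in CKO and -0.48 in Control mice). In Control mice Cd40 was higher as well (log2 0.25) and Traf3 lower (log2 -0.38). Sdc4 and Sdc3, the other syndecans tested, did not pass: Sdc4 was at 282 ± 21 CPM in MZ and 235 ± 18.7 CPM in FO libraries of CKO mice, and Sdc3 at 17.7 ± 7.91 CPM in MZ and 21.8 ± 9.17 CPM in FO libraries of CKO mice.

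Of 11 immunoglobulin constant genes, 2 were higher and 1 lower in MZ B cells in CKO mice, and 3 were higher and 3 lower in Control mice. Ighm was at 6850 ± 754 CPM in MZ and 5040 ± 47.7 CPM in FO libraries of CKO mice (log2 0.45, adjusted p = 0.02104) and had a log2 of 0.40 in Control mice (adjusted p = 0.006142). Ighd was lower (log2 -1.81 in CKO and -2.0 in Control mice). Of 14 genes for homing and surface of plasma cells, 5 were higher and 2 lower in CKO mice, and 5 higher and 6 lower in Control mice. Cxcr4, the receptor that holds plasma cells in bone marrow, was at 67.2 ± 14.7 CPM in MZ and 246 ± 46.0 CPM in FO libraries of CKO mice (log2 -1.86, adjusted p = 0.003989) and had a log2 of -2.06 in Control mice. Cd9 was higher (log2 2.13 in CKO and 2.46 in Control mice) and is also on the list of MZ markers. Of 7 other IRF genes only Irf2 passed, as lower in MZ B cells (log2 -0.68 in CKO and -0.73 in Control mice).

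Between CKO and Control mice, 0 genes of these 12 lists passed in either cell type. Of all genes tested, 0.0793% passed in MZ and 0.09% in FO B cells. The test did not call Cdca7 either, so an absent call does not show an unchanged level. In MZ B cells the medians of the lists lay between -0.06 and 0.21 on the log2 scale, and in FO B cells between -0.07 and 0.20, with the median of all genes at 0 and 0.01. Bach2 was at 43.0 ± 6.02 CPM in MZ CKO and 36.5 ± 4.34 CPM in MZ Control libraries (log2 0.23, SE 0.12, adjusted p = 1). Mzb1 was at 126 ± 14.1 CPM in FO CKO and 106 ± 3.76 CPM in FO Control libraries (log2 0.26, SE 0.08, adjusted p = 0.9995). Neutrophil markers had a median log2 of 1.08 in MZ and 0.99 in FO B cells, with 0 of 8 passing in each, and their part in the genotype values was not tested.

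For each gene that can be followed between libraries, the genes nearest to it in pattern were looked up over 12 libraries of 6 animals, with group means taken off and levels on the log2(CPM + 1) scale, among 14012 genes. The nearest to Jchain were Dck (r = 0.969), Tspan9 (0.965) and Psmd7 (0.961). The nearest to Sdc1 were Wipi1 (0.972), Cdc42ep4 (0.961) and St3gal5 (0.957), and to Tnfrsf17 Tmem14c (0.988), Klhl23 (0.964) and Abcb4 (0.962). Among the nearest to Prdm1 were Eif5 (0.974) and P2ry12 (0.94), and among the nearest to Irf4 were Arhgap9 (0.98) and Rps19-ps3 (0.978). Xbp1 was nearest to Ube2a (0.954), Eif2s2 (0.931) and Snrpd1 (0.929), Ell2 to Gm13680 (0.979), Gm15500 (0.96) and Psmd14 (0.956), Creb3l2 to Gm9825 (0.962), Lpar2 (0.957) and Gm12708 (0.957), and Slamf7 to Firre (0.955), Gm42595 (0.954) and Noct (0.933). None of the 9 genes was among the 3 nearest of another, but candidates needed a mean of at least 1 CPM, which Tnfrsf17 did not reach. Between the 9 genes themselves, r was highest for Jchain and Tnfrsf17 (0.87), Sdc1 and Tnfrsf17 (0.73) and Sdc1 and Jchain (0.72). It was lowest for Ell2 and Creb3l2 (-0.69). The libraries of an animal share its differences, and the best of so many candidates is high by selection, so these values are a description.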

How the data were processed

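RNA from 12 libraries was made with the Illumina TruSeq kit after magnetic isolation of MZ and FO B cells, per the labels' protocols. The authors deposited whole-number read counts for each Ensembl gene, without normalization. TopHat, HTSeq and DESeq2 are named without versions, on GRCm38, per the submitters' processing notes. The annotation release and strand setting are not given in the sources used here. The 5 entries that name no gene held 43.2 to 50.4% of listed reads and were left out. Symbols (45229 of 46078 genes) came from GENCODE M21.

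Counts were tested over all genes in R 4.3.3 with edgeR 4.0.16 (filterByExpr, TMM, robust quasi-likelihood F test, two-sided, Benjamini-Hochberg threshold 0.05) on the 6 libraries of each comparison, and on all 12 for the interaction. Each SE was derived from the fold change and its F statistic. CPM use TMM sizes over 12 libraries. The code was tested on simulated data. DESeq2 1.42.0 and limma 3.58.1 were alternatives, with other scalings, no count filter, left-out libraries and replicate blocks.

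The 9 genes, Zbtb24 and Cdca7 are named in every comparison. Each other list gives up to 4 genes that passed or, where none did, up to 2 of smallest p, and the text prints a part of these. For each of the 9, the 3 genes nearest in pattern were named, except 2 that are not reported here. The genes and lists were chosen with earlier results of these data known. MZ and FO libraries of an animal number deviated together (r between 0.55 and 0.78). Those numbers were taken to pair the libraries in the ratios within an animal and in the animal block. The main tests did not use the pairing. CKO and Control libraries of 1 replicate number correlated at 0.13, 0.4 and 0.38 in FO B cells.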

Additional observations from a re-analysis of the deposited data

How the results depend on the processing

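For the 9 genes, 764 values were recomputed under alternatives: 710 kept direction and side of the threshold, 36 reversed, 16 lost the threshold and 2 gained it. None that had passed reversed. CKO against Control called 0 of the 9 under every alternative. The MZ against FO count in CKO mice (5) was 3 with animals 1505 to 1514 alone. Reversed, in log2 units, were Tnfrsf17 in FO CKO against Control (-0.15 without animals 1507 and 1514, chosen after seeing the data; -0.06 with limma-voom; -0.01 with the replicate block), Xbp1 (0.02) and Creb3l2 (0.06) in MZ CKO against Control and the Jchain interaction (-0.27) with animals 1505 to 1514 alone, and Jchain in MZ CKO against Control (0.23) and Creb3l2 in CKO MZ against FO (-0.08) without animals 1507 and 1514. The cause was not tested.

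Leaving out 1 library reversed the following, given as lowest and highest. FO CKO against Control: Prdm1 -0.33 to 0.05, Sdc1 -0.22 to 0.06, Tnfrsf17 -0.89 to 0.78, Ell2 -0.10 to 0.01. MZ CKO against Control: Xbp1 -0.04 to 0.03, Sdc1 -0.10 to 0.43, Jchain -0.52 to 0.45, Ell2 -0.02 to 0.16, Creb3l2 -0.29 to 0.09, Slamf7 -0.03 to 0.11. MZ against FO: Tnfrsf17 -0.93 to 0.42 in Control mice, Creb3l2 -0.02 to 0.36 in CKO mice. Interaction: Xbp1 -0.06 to 0.01, Sdc1 -0.05 to 0.49, Jchain -0.29 to 0.69, Tnfrsf17 -1.48 to 0.18.

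Counts over all genes moved more. In FO CKO against Control 16 genes passed, 42 with DESeq2, 140 without a filter, 26 with animals 1505 to 1514 alone, 25 with the replicate block and 31 without FO CKO replicate 3. In MZ 14 passed, 35 with DESeq2, 95 without a filter, 34 with animals 1505 to 1514 alone, 57 with the block, 7 with limma-voom or without robust dispersion, and 5 to 34 without 1 library (MZ CKO replicate 3 and each MZ Control library moved it by over 1.5 times). MZ against FO in CKO mice called 3243, 1770 with animals 1505 to 1514 alone, 6333 with the animal block and 1898 without FO CKO replicate 1, and in Control mice 4977, 2888 with those animals alone and 7805 with the block. The interaction called 0, and 4 with the block. Replicate numbers did not pair the MZ libraries of CKO and Control mice (r = -0.11, 0.43 and 0.41). Apart from Jchain in CKO mice, the block changed no call of the 9.

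With animals 1505 to 1514 alone, Slamf7 (adjusted p = 0.1705) and Ell2 (0.08469) in CKO mice and Slamf7 (0.153) and Creb3l2 (0.08431) in Control mice missed the threshold in the MZ against FO comparison.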
